A study of Homo sapiens with 22 samples.

Results

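The 9 polyadenylated replacement histone genes H1F0, H1FX, H2AFX, H2AFJ, H2AFZ, H2AFV, H2AFY, H3F3A and H3F3B were followed in human colorectal cancer cell lines. They were chosen by symbol from the gene tables as listed histone genes outside the HIST1 to HIST4 clusters. They made up 9 of 58870 gene rows in the siRNA tables and 9 of 57820 gene rows in the actinomycin D tables. All 9 were present in every one of the 22 libraries, and all 9 passed the filter on low counts in both experiments. The first experiment used LS180 cells carrying siRNA against STAU1 (siSTAU1, 2 libraries) or a control siRNA (siCTRL, 2 libraries), each labelled as 72 h plus 72 h and sequenced from polyA RNA. STAU1 encodes Staufen1, a protein that binds structured RNA and can mark mRNAs for decay. The second experiment placed HCT116 and LS180 cells, without any labelled siRNA, in 5 µg/ml actinomycin D for 0, 2 or 4 h, with 3 total RNA libraries per line and time. Actinomycin D blocks transcription, so this experiment follows how much of each RNA is left when little new RNA is made. The siRNA comparison therefore rests on 1 cell line. The experiments differ in RNA selection and genome build, so levels were never compared between them. Nothing in the labels says whether the libraries of a group came from separate cultures, and the p-values measure only the spread between these libraries.

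Most histone mRNA in a dividing cell comes from the clustered HIST1 to HIST4 genes, which are expressed in S phase and whose mRNAs end in a stem-loop without a poly(A) tail. Replacement histones come from genes outside those clusters, are made throughout the cell cycle, and are deposited independently of DNA replication. H2AFX is a known mixed case, since its gene gives both a stem-loop mRNA and a longer polyadenylated mRNA. The linker histones H1.0 and H1.10, encoded by H1F0 and H1FX, bind the DNA between nucleosomes, and H1.0 accumulates in differentiated and resting cells. H2AX (H2AFX) is phosphorylated around DNA breaks, and H2A.J (H2AFJ) is an H2A variant known to accumulate in senescent human fibroblasts. The H2A.Z proteins (H2AFZ and H2AFV) sit near transcription start sites, and macroH2A1 (H2AFY) carries a large extra domain and is linked to silenced chromatin. H3F3A and H3F3B encode the same H3.3 protein, which marks active genes as well as telomeres and other repeats.

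On GRCh38 (GENCODE 29) the members lie on 9 chromosomes, so no 2 of them are neighbours. H1F0 (ENSG00000189060, chr22:37805093-37807436) and H1FX (ENSG00000184897, chr3:129314771-129316277) have 1 exon each. H2AFX (ENSG00000188486, chr11:119093854-119095467), H2AFJ (ENSG00000246705, chr12:14774383-14778002), H2AFZ (ENSG00000164032, chr4:99948086-99950388), H2AFV (ENSG00000105968, chr7:44826791-44848083) and H2AFY (ENSG00000113648, chr5:135333900-135399914) encode the H2A variants. H3F3A (ENSG00000163041, chr1:226061851-226072001) and H3F3B (ENSG00000132475, chr17:75776434-75785893) encode H3.3. Sequence bears on how the H3.3 genes were counted. The first 120 coding bases of H3F3A, of its processed pseudogene H3F3AP4 and of H3F3B are shown because they differ so unequally. They were read from GENCODE 29 transcripts on GRCh38, at chr1:226064352-226064471 on the plus strand, chr2:174719908-174720027 on the plus strand and chr17:75779055-75779174 on the minus strand. Capitals mark bases that differ from H3F3A.
H3F3A: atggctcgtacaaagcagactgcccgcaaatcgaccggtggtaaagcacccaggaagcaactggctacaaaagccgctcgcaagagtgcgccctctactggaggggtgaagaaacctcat
H3F3AP4: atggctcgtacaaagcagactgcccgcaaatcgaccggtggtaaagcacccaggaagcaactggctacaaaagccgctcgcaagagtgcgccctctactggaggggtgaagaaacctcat
H3F3B: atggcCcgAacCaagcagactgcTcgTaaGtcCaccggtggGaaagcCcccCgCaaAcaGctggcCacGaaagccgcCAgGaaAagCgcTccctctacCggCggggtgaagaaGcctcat

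Over the whole 408 coding bases H3F3AP4 had 0 mismatches to H3F3A, whereas H3F3B had 88 mismatches, an identity of 78.4%, and shared no identical run longer than 14 bases. H2AFV and H2AFZ were 80.5% identical over 384 coding bases, with a longest shared run of 23 bases. Reads from the coding region can therefore not be told apart between H3F3A and H3F3AP4, while reads of the other pairs largely can. The pseudogene rows of H3F3A held 8.41% to 9.67% of the gene and copy counts in siSTAU1 libraries and 7.74% to 8.95% in siCTRL libraries, and 24.9% to 30.5% in the actinomycin D libraries. Copies of the other 8 genes held at most 4 counts in any library. The main results on H3F3A are also given with the copies added to the gene, which changed the H3F3A call in none of the 10 comparisons. On the opposite strand, H3F3B exons share 214 annotated bases with UNK, which reached 732 counts in the siRNA and 1631 counts in the actinomycin D libraries. The kits keep strand, but the strand setting of the counting is not given in the sources used here.

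Upstream sequence was also compared, because 4 of the 9 members were called higher after siSTAU1, although 2 were called lower. RefSeq windows of 250 bases before the transcription start (GRCh38.p14) were found for 8 of the 9 genes, in 12 windows, and H1F0 had no entry. CCAAT was searched on both strands and counted as CCAAT or ATTGG, with no overlap between matches. At least 1 match stood in 32.0% of 35116 RefSeq windows of this length, and in 9 of the 12 windows of these genes. The windows of H2AFX, H2AFJ and H3F3B are shown, the genes with the largest increases after siSTAU1, at chr11:119095466-119095715 (minus strand), chr12:14774155-14774404 (plus strand) and chr17:75779780-75780029 (minus strand), with the matches in capitals.
H2AFX: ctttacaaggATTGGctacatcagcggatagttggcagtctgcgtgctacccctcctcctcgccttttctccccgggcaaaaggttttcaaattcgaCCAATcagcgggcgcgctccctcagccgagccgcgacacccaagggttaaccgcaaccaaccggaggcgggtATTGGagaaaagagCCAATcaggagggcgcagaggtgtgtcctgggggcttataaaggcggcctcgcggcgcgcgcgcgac
H2AFJ: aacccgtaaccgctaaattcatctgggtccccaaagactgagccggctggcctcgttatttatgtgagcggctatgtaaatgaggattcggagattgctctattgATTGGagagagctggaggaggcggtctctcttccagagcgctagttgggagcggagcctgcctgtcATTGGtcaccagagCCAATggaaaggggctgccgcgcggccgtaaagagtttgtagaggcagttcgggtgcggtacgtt
H3F3B: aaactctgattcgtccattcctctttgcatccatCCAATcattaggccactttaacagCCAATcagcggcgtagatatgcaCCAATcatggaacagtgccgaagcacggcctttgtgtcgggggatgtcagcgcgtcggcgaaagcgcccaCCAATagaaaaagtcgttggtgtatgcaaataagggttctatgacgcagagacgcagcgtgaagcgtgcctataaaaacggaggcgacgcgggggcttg

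H2AFX had 4 matches, H2AFJ had 3 and H3F3B had 4. The windows of H2AFZ and H2AFV held 3 and 4 matches, and neither of those genes passed the test after siSTAU1. H1FX had 0 matches, H2AFY had 0 or 2 and H3F3A had 0 or 1, depending on the start. The matches are descriptions of these letters and do not show binding.

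Library totals ran from 23.7 to 26.7 M counts (M stands for 1000000) in the siRNA experiment and from 47.8 to 61.4 M in the actinomycin D experiment. The 9 genes together held 0.317 to 0.320% of counts in siSTAU1 libraries and 0.312 to 0.314% in siCTRL libraries. STAU1 itself was at 9.70 and 9.17 CPM in siSTAU1 libraries, against 144 and 141 CPM in siCTRL libraries, where CPM is counts per 1000000 after scaling by the trimmed mean of M-values (TMM). The 9 epithelial markers summed to 8614 to 8765 TPM (transcripts per 1000000, corrected for length) in siSTAU1 and 9324 to 9859 TPM in siCTRL libraries, and in HCT116 cells CDX1 was at 0 in all 3 libraries at 0 h. The 6 fibroblast markers summed to 8.94 to 9.16 TPM in siSTAU1 and 2.04 to 2.84 TPM in siCTRL libraries, with 1 to 2 of the 6 at 0 in siSTAU1 and 1 at 0 in siCTRL libraries. Mitochondrial transcripts held 1.55 to 1.74% of counts in siSTAU1 and 1.304 to 1.38% in siCTRL libraries. The part of these shifts in the results below was not tested. Some libraries stood apart. Counts of HCT116 library 1 differed from those of libraries 2 and 3 with a chi-square per degree of freedom of 23.4 to 40.9 over the times, against 4.13 to 8.96 between libraries 2 and 3. LS180 4 h library 1 differed from libraries 2 and 3 with 62.7 and 119, against 17.04 between these. Results that turn on these libraries are given with and without them. In bulk RNA, fewer cells of a type and less RNA per cell cannot be told apart.

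The siRNA comparison asks which mRNAs change in level when Staufen1 is depleted. H2AFX, H2AFJ, H3F3B and H3F3A mRNAs were higher in siSTAU1 than in siCTRL cells, H1F0 and H2AFY mRNAs were lower, and H1FX, H2AFZ and H2AFV did not pass the test. The changes were moderate, between a log2 fold change of -0.48 and 0.41. Thus 4 of 9 genes were called higher, where 23% of all 14073 genes tested were, and 2 of 9 were called lower, where 23% of all genes were, so that 6 of 9 were called in either direction, beside 46.1% of all genes. The members' median log2 fold change was 0.07, against 0.001 for all genes. A gene was called at an adjusted p under 0.05 in edgeR's quasi-likelihood test with Benjamini-Hochberg adjustment over all genes tested.

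**Figure D1:**
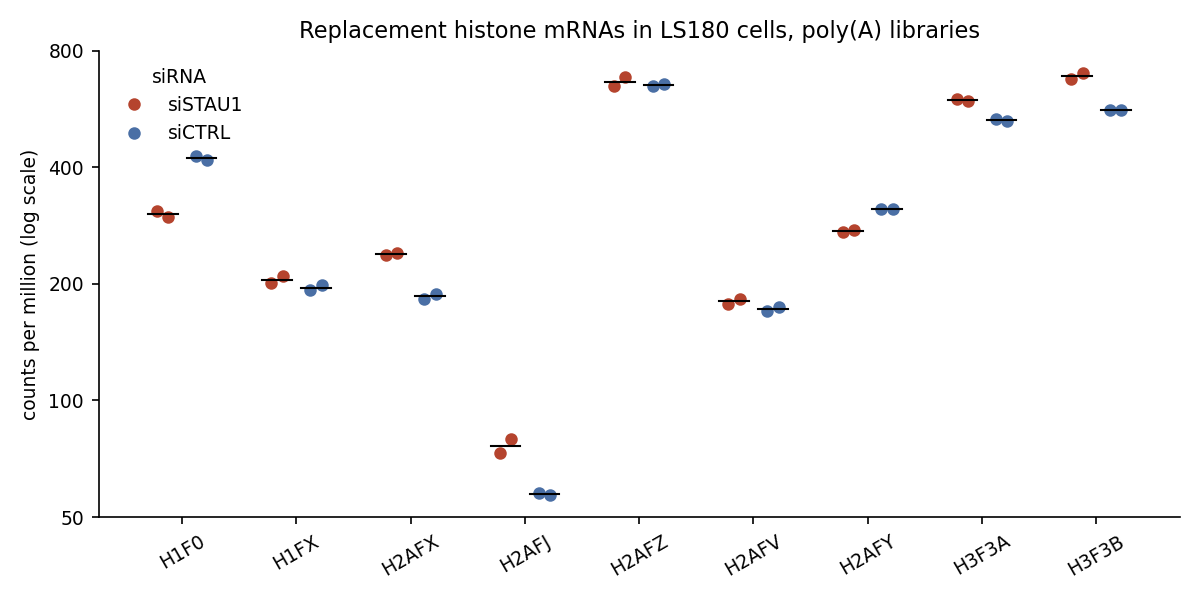
CPM (log scale) of the 9 genes in each LS180 library, with siSTAU1 in red on the left and siCTRL in blue on the right of each gene. Points are libraries (2 per group) and bars are group means. H1F0 and H2AFY lie lower in siSTAU1, and H2AFX, H2AFJ, H3F3A and H3F3B lie higher, with no overlap of the libraries. The libraries of H1FX and H2AFV, which did not pass the test, do not overlap either.

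Among the linker histones, H1F0 stood at 308 and 298 CPM in siSTAU1 libraries, against 428 and 418 CPM in siCTRL libraries. Both siSTAU1 values lay below both siCTRL values, and the level was 71.7% of that in siCTRL, a log2 fold change of -0.48 ± 0.03 (SE), edgeR adjusted p = 1.10e-06. H1FX, the other linker gene, stood at 201 and 209 CPM in siSTAU1 libraries and 193 and 198 CPM in siCTRL libraries. Its log2 fold change of 0.07 ± 0.04 (SE) had a 95% interval of -0.002 to 0.14 and an edgeR adjusted p of 0.1405. Without siSTAU1 library 1 it was called, at 0.09 (edgeR adjusted p = 0.0438). The 2 linker genes thus differed in outcome under the same test, though their difference was not itself tested.

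H2AFX, the damage-linked H2A, rose to 238 and 241 CPM in siSTAU1 libraries, against 183 and 189 CPM in siCTRL libraries, without overlap. PolyA libraries select polyadenylated RNA, while total RNA libraries can hold both forms of H2AFX mRNA. This was a log2 fold change of 0.36 ± 0.03 (SE), edgeR adjusted p = 6.91e-06. H2AFJ rose to 73.2 and 79.5 CPM in siSTAU1 libraries, against 57.6 and 57.1 CPM in siCTRL libraries. It had the largest increase of the 9 genes, with a log2 fold change of 0.41 ± 0.05 (SE), edgeR adjusted p = 7.51e-05.

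Neither H2A.Z gene passed the test. H2AFZ was at 647 and 685 CPM in siSTAU1 and 647 and 655 CPM in siCTRL libraries, which overlap, and its log2 fold change of 0.03 ± 0.04 (SE) had a 95% interval of -0.04 to 0.11 and an edgeR adjusted p of 0.515. H2AFV was at 178 and 182 CPM in siSTAU1 and 170.4 and 174 CPM in siCTRL libraries, with a log2 fold change of 0.07 ± 0.03 (SE), edgeR adjusted p = 0.144. macroH2A1 mRNA (H2AFY) fell to 273 and 275 CPM in siSTAU1 libraries, against 313 and 311 CPM in siCTRL libraries, a log2 fold change of -0.19 ± 0.03 (SE), edgeR adjusted p = 5.62e-04. The related macroH2A2 gene H2AFY2, which is not one of the 9, was called in the other direction, with 59.3 ± 0.458 CPM in siSTAU1 and 52.6 ± 1.18 CPM in siCTRL libraries (SD, n = 2 each), a log2 fold change of 0.18 with edgeR adjusted p = 0.0173.

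Both H3.3 genes were higher. H3F3B was at 678 and 699 CPM in siSTAU1 libraries, against 562 and 563 CPM in siCTRL libraries, a log2 fold change of 0.29 ± 0.04 (SE), edgeR adjusted p = 5.27e-05. H3F3A was at 601 and 594 CPM in siSTAU1 libraries, against 532 and 528 CPM in siCTRL libraries, a log2 fold change of 0.17 ± 0.03 (SE), edgeR adjusted p = 0.00152. With pseudogene copies added the H3F3A value was 0.18 (edgeR adjusted p = 0.00103). Without siCTRL library 2 the H3F3A call was lost at an edgeR adjusted p of 0.0534, with the log2 fold change at 0.17. The number of H3F3B counts per H3F3A count within a library, which no scaling can move, was 1.15 ± 0.0345 in siSTAU1 and 1.06 ± 0.00725 in siCTRL libraries (SD, n = 2 each), without overlap (exact permutation p = 0.333, the smallest that 2 against 2 libraries allow). With the copies counted as H3F3A the ratio was 1.05 ± 0.0211 in siSTAU1 and 0.972 ± 0.00245 in siCTRL libraries, also without overlap. Counts of H2AFZ per H2AFV count, whose genes were not called, did not overlap either, at means of 3.70 in siSTAU1 and 3.78 in siCTRL libraries.

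Per length, H2AFZ ranked 135 among 19934 protein-coding genes in both groups and was the most abundant of the 9 mRNAs in both groups, at 1196 ± 9.47 TPM in siSTAU1 and 1257 ± 24.4 TPM in siCTRL libraries (SD, n = 2 each). H3F3A followed at 845 ± 33.5 TPM in siSTAU1 and 805 ± 5.20 TPM in siCTRL libraries, and then H3F3B at 807 ± 11.7 TPM in siSTAU1 and 715 ± 29.6 TPM in siCTRL libraries. The other 6 genes lay between 167 and 255 TPM in siSTAU1 libraries and between 163 and 282 TPM in siCTRL libraries. H1F0 was the lowest of the 9 in siSTAU1 libraries at 173 ± 9.27 TPM, and stood at 259 ± 1.301 TPM in siCTRL libraries, above H2AFV, H1FX, H2AFX and H2AFJ. On this TPM scale H2AFZ was slightly lower and H1FX close to level, so the CPM and TPM values of these uncalled genes do not share a sign.

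The factors that place or read these histones were described with lists made from general knowledge. Over all genes tested, 23% were called higher and 23% lower in siSTAU1 cells, and the list counts stand beside these shares. Of 8 H3.3 deposition factors, 1 was called higher and 6 lower in siSTAU1 cells, with a median log2 fold change of -0.35. HIRA, the core H3.3 chaperone at active genes, averaged 105 ± 0.947 CPM in siSTAU1 and 130.3 ± 1.85 CPM in siCTRL libraries (SD, n = 2 each), a log2 fold change of -0.31 with edgeR adjusted p = 3.55e-05. ATRX, which works with DAXX at repeats, averaged 23.7 ± 2.58 CPM in siSTAU1 and 40.1 ± 2.96 CPM in siCTRL libraries (SD, n = 2 each), a log2 fold change of -0.76 with edgeR adjusted p = 2.43e-05. Of 15 genes of the H2A.Z exchange complexes, 2 were higher and 5 lower (median -0.03), and the H2A.Z-loading ATPase gene SRCAP had a log2 fold change of -0.47 (edgeR adjusted p = 3.93e-04). Of 13 genes of H2AX damage signalling, all of them tested, 1 was higher and 8 lower (median -0.23), while H2AFX itself was higher. MDC1, the reader of phosphorylated H2AX, averaged 27.8 ± 2.49 CPM in siSTAU1 and 42.6 ± 2.02 CPM in siCTRL libraries (SD, n = 2 each), a log2 fold change of -0.62 with edgeR adjusted p = 4.69e-05. Of 10 replication-coupled histone factors, 1 was higher and 5 lower (median -0.21). Of 89 clustered histone genes 29 passed the filter in these polyA libraries, and 5 were called higher and 0 lower. Of the other replacement variants, 2 of 9 passed the filter, H2AFY2 given above and CENPA, which encodes the centromeric H3 variant, at a log2 fold change of -0.05 (edgeR adjusted p = 0.597).

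In actinomycin D H2AFX was the only 1 of the 9 genes called lower in the main fit, which used TMM. H2AFX RNA fell in both lines, to 59.2% of its 0 h level in HCT116 and 45.1% in LS180 cells by 4 h. H3F3A, H2AFY, H2AFV, H2AFZ and H2AFJ were higher on the TMM scale in both lines at 4 h, with log2 fold changes between 0.23 and 0.58. H1FX and H3F3B passed the test in neither line in the main fit. Over 18 settings H3F3B was called in 7 in HCT116 and 6 in LS180 cells. H1FX was called in 1 in HCT116 and 2 in LS180 cells. H1F0 was called in 17 in HCT116 and 6 in LS180 cells, with log2 fold changes from -0.52 to 0.24 in LS180 cells. In the main fit H1F0 was called higher in HCT116 and not in LS180 cells, and the difference between the lines did not pass the test (0.21 ± 0.08 SE, edgeR adjusted p = 0.110). That difference was called under 4 of the 24 alternatives, without LS180 4 h library 2 (0.27, edgeR adjusted p = 0.0493) or 3 (0.28, edgeR adjusted p = 0.0315), with total library size (0.30, edgeR adjusted p = 0.0105) and under ribosomal protein scaling (0.37, edgeR adjusted p = 0.0277). CPM here carry the TMM scaling. A higher value after a transcription block is therefore a rise relative to the other RNA that remained, not more molecules. With total library size and no TMM the median change of all genes at 4 h was -0.06 in HCT116 and -0.20 in LS180 cells. When libraries were scaled to the ribosomal protein genes instead, the median change of all genes at 4 h was -0.33 in HCT116 and -0.54 in LS180 cells, against 0.02 and 0 with TMM. The calls over all genes at 4 h were then 116 higher and 7231 lower in HCT116, against 4524 higher and 4085 lower with TMM, and 125 higher and 10712 lower in LS180, against 4591 higher and 5365 lower with TMM. Under that scaling none of the 5 was called higher in either line. H2AFZ (-0.06 in HCT116, -0.15 in LS180) and H2AFJ (-0.05 in HCT116, -0.33 in LS180) then had negative log2 fold changes, as did H1F0 (-0.14) and H3F3B (-0.22) in HCT116 and H2AFV in LS180 cells (-0.13). H1FX was then called lower in HCT116 (-0.34) and LS180 cells (-0.69), and H1F0 (-0.52), H3F3B (-0.46) and H2AFJ were called lower in LS180 cells. H2AFX fell under every scaling tried.

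At 4 h over 0 h, 6 of 9 genes were called higher and 1 lower in HCT116 cells, where 26.2% and 23.7% of the 17256 genes tested were called in these directions and 49.9% in either. In LS180 cells 5 were called higher and 1 lower, where 26.6% and 31.1% of all genes were and 57.7% in either direction. The members' median log2 fold change was 0.34 in HCT116 and 0.23 in LS180 cells, against 0.02 and 0 for all genes. At 2 h over 0 h, 3 were called higher and 1 lower in each line, where 13.8% and 17.1% of all genes were called higher and lower in HCT116 (31% in either direction) and 13.5% and 23.9% in LS180 cells (37.4% in either direction). In LS180 cells scaling by DESeq2's size factors (RLE) instead of TMM called 7 of the 9 at 2 h, with H1F0, H2AFV and H2AFJ added, but it also turned the calls over all genes to 4863 higher and 3364 lower, against 2329 higher and 4121 lower with TMM. Ribosomal protein scaling called 1 at 2 h in each line, H2AFX. At 4 h over 2 h, 1 gene was called higher and 0 lower in HCT116 cells (background 4.85% higher, 11% lower and 15.8% in either direction), where 2 of the 9 had an unadjusted p under 0.05, DESeq2 called 2 and leaving out library 1 of every HCT116 group called 3. In LS180 cells H2AFV, H2AFY and H3F3A were called higher and H2AFX lower over the same step (background 12.2% higher, 18.5% lower and 30.7% in either direction), and 0 were called once the 4 h libraries 2 and 3 were left out, when the test over all genes gave 1341 calls against 5306 with them. The H3F3A call over that step (0.26 ± 0.07 (SE), edgeR adjusted p = 0.00619, and 0.29 with the copies added) was also lost without 4 h library 2 alone (0.19, edgeR adjusted p = 0.0635). With total library size H3F3A (0.10, edgeR adjusted p = 0.285) and H2AFV (0.10) were not called over this step, nor under ribosomal protein scaling (-0.06 and -0.06), where H2AFY was not called either (-0.02). H1F0 and H1FX were then called lower, at -0.21 and -0.27 with total library size and -0.37 and -0.42 under ribosomal protein scaling, which also called H3F3B lower (-0.27). The 2 h and 4 h changes share their 0 h libraries.

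**Figure D2:**
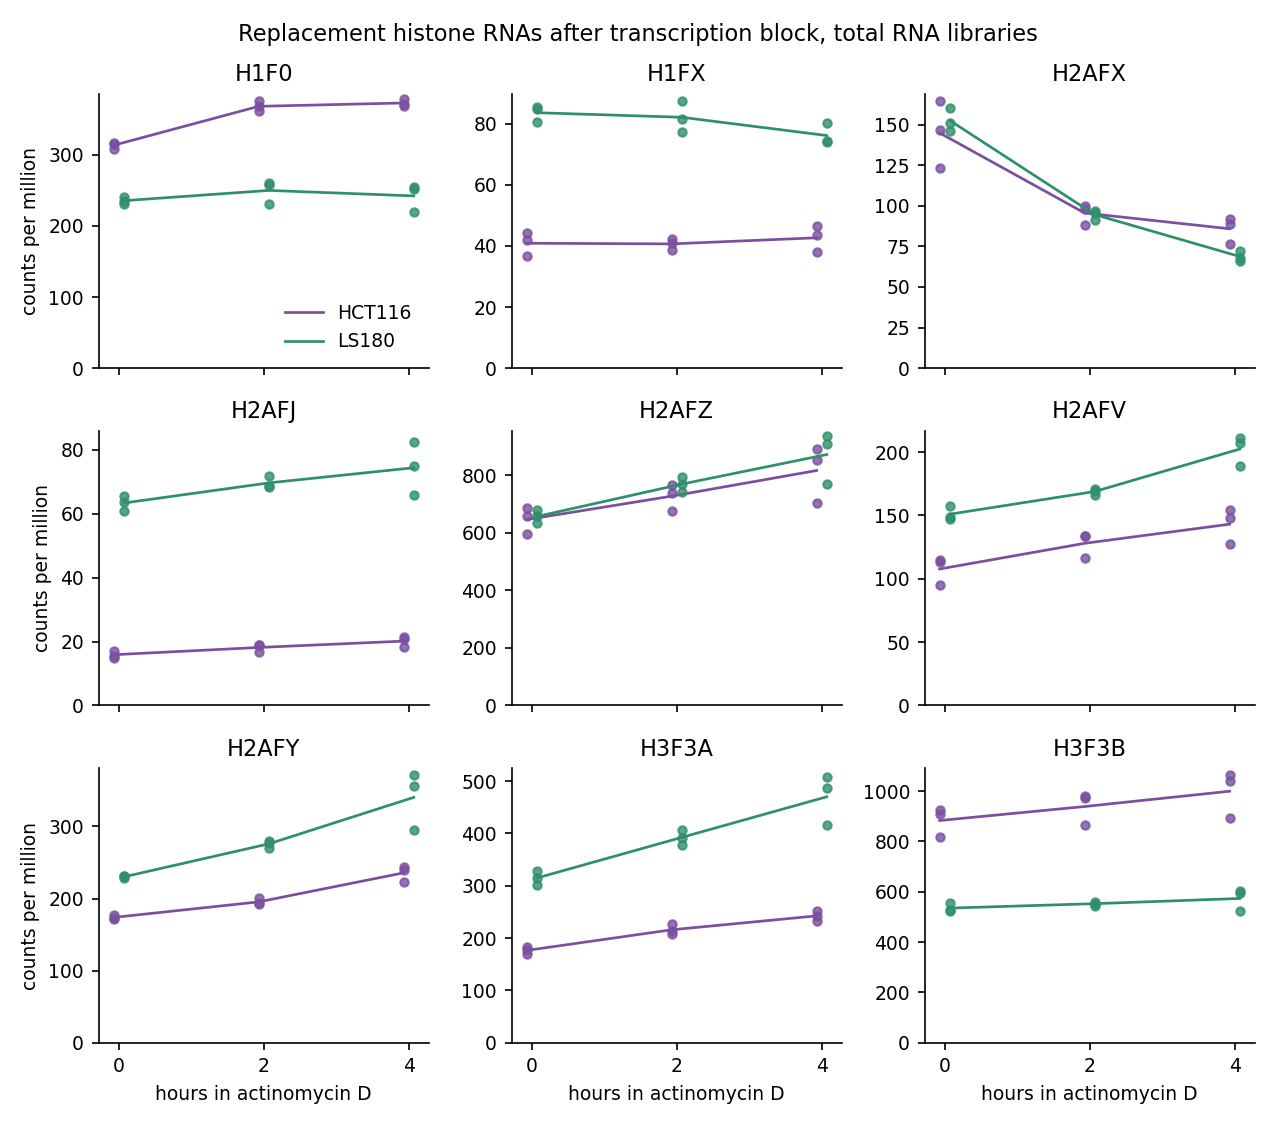
CPM of the 9 genes at 0, 2 and 4 h in actinomycin D, with HCT116 in purple and LS180 in green. Points are libraries (3 per line and time) and lines join the group means. H2AFX falls in both lines, and H2AFY and H3F3A are higher at 4 h in both on this TMM scale.

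H2AFX was at 123, 147 and 164 CPM at 0 h, 88.3, 98.3 and 100.02 CPM at 2 h and 76.4, 92.0 and 89.02 CPM at 4 h in HCT116 cells. In LS180 cells it was at 151, 160.4 and 146 CPM at 0 h, 97.0, 95.4 and 91.3 CPM at 2 h and 72.2, 65.9 and 68.0 CPM at 4 h. No 4 h or 2 h library reached any 0 h library of its line. The log2 fold change at 2 h was -0.60 ± 0.09 (SE), edgeR adjusted p = 3.48e-05 in HCT116, and -0.69 ± 0.09 (SE), edgeR adjusted p = 3.55e-06 in LS180 cells. By 4 h it was -0.76 ± 0.09 (SE), edgeR adjusted p = 9.83e-07 in HCT116, and -1.15 ± 0.09 (SE), edgeR adjusted p = 1.83e-09 in LS180 cells. The fall between 2 and 4 h was called in LS180 cells (-0.46 ± 0.09 (SE), edgeR adjusted p = 6.55e-04) but not in HCT116 cells (-0.16 ± 0.09 (SE), edgeR adjusted p = 0.255), and the LS180 call was lost without the 4 h libraries 2 and 3 (edgeR adjusted p = 0.111). As a share of the counts of all 9 genes, which no scaling of libraries can move, H2AFX held 5.77 ± 0.574% at 0 h, 3.50 ± 0.0928% at 2 h and 2.90 ± 0.0892% at 4 h in HCT116 cells (SD, n = 3 each). In LS180 cells the share was 6.30 ± 0.391% at 0 h, 3.56 ± 0.0647% at 2 h and 2.37 ± 0.327% at 4 h (SD, n = 3 each). In each line the 3 times did not overlap for H2AFX, and the exact permutation test of 4 h against 0 h gave p = 0.1, the smallest that 3 against 3 libraries allow. Shares of other members also fell from 0 to 4 h without overlap of libraries. In LS180 cells mean shares fell from 9.72 to 8.30% for H1F0, 3.45 to 2.62% for H1FX and 22.1 to 19.7% for H3F3B. In HCT116 cells they fell from 1.63 to 1.44% for H1FX and 35.3 to 33.8% for H3F3B. Mean shares of H2AFZ, H2AFV, H2AFY and H3F3A were higher at 4 h in both lines.

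Whether the lines differ in how far H2AFX fell was tested as the difference of their changes. At 4 h the HCT116 change exceeded the LS180 change by 0.39 ± 0.12 (SE), edgeR adjusted p = 0.0394, the only member called of 9, where 12.3% of all genes were called in this direction and 1.33% in the other. This split of all genes depended on the setting, with 2129 higher and 230 lower here, 1253 higher and 1757 lower with the 1 CPM filter, and 1919 higher and 2536 lower without LS180 4 h library 1. The H2AFX call was lost without LS180 0 h library 1 or 2, any LS180 4 h library, HCT116 0 h library 1 or 2, or any HCT116 4 h library (edgeR adjusted p from 0.0604 to 0.455). It was 0.17 without HCT116 4 h library 2, 0.20 without HCT116 4 h library 3, and lost without the LS180 4 h libraries 2 and 3 together (0.16, edgeR adjusted p = 0.707). Without LS180 4 h library 1, the library that stood apart, H2AFY (-0.38, edgeR adjusted p = 5.76e-04) and H3F3A (-0.36, edgeR adjusted p = 0.00229) were called in place of H2AFX. The 1 CPM filter with all libraries kept also called H2AFY and H3F3A and not H2AFX. At 2 h 0 of the 9 differences were called in edgeR, 0 had an unadjusted p under 0.05 and DESeq2 called 0, where 5.24% of all genes were called higher in HCT116 and 5.64% in either direction. The 2 h difference of H2AFX was 0.09 ± 0.12 (SE), with a 95% interval of -0.15 to 0.33.

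**Figure D3:**
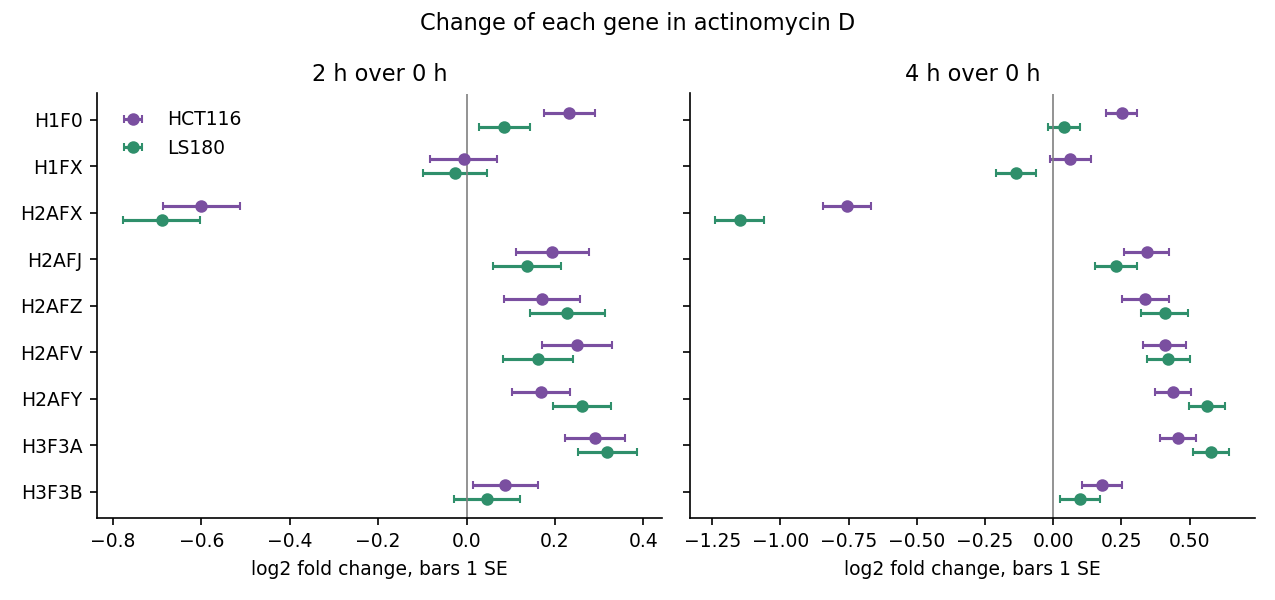
Log2 fold change of each gene at 2 h over 0 h (left) and 4 h over 0 h (right), with HCT116 in purple above LS180 in green. Points are edgeR estimates and bars 1 SE (3 libraries per group). H2AFX alone lies far left of 0 in both lines at both times.

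Of the 9 genes H3F3A showed the largest increase at 4 h on the TMM scale in both lines, though under ribosomal protein scaling it was not called (0.07 in HCT116 and 0.02 in LS180 cells). It was at 183, 177 and 169 CPM at 0 h, 227, 213 and 208 CPM at 2 h and 233, 252 and 243 CPM at 4 h in HCT116 cells. LS180 cells had 314, 302 and 329 CPM at 0 h, 406, 392 and 379 CPM at 2 h and 415, 508 and 487 CPM at 4 h. All 4 h values lay above all 0 h values in each line. At 2 h the log2 fold change was 0.29 ± 0.07 (SE), edgeR adjusted p = 0.00304 in HCT116, and 0.32 ± 0.07 (SE), edgeR adjusted p = 9.42e-04 in LS180 cells. The log2 fold change at 4 h was 0.46 ± 0.07 (SE), edgeR adjusted p = 1.56e-05 in HCT116, and 0.58 ± 0.07 (SE), edgeR adjusted p = 5.44e-07 in LS180 cells. With the pseudogene copies added the 2 h value was 0.28 in HCT116 and 0.27 in LS180 cells and the 4 h value was 0.46 in HCT116 and 0.55 in LS180 cells, and all 4 stayed called.

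H3F3B, which encodes the same protein, did not pass the test in either line in the main fit. H3F3B was at 816, 923 and 910.1 CPM at 0 h, 864, 979 and 973 CPM at 2 h and 893, 1042 and 1064 CPM at 4 h in HCT116 cells. In LS180 cells it was at 523, 529 and 554 CPM at 0 h, 560.5, 545 and 553 CPM at 2 h and 523, 594 and 603 CPM at 4 h. The times overlapped in both lines, and the 4 h log2 fold change was 0.18 ± 0.07 (SE), edgeR adjusted p = 0.0529 in HCT116, and 0.10 ± 0.07 (SE), edgeR adjusted p = 0.268 in LS180 cells. The HCT116 value lay close to the threshold. It was called under 7 of the 17 alternatives, and under ribosomal protein scaling it was -0.22 (edgeR adjusted p = 0.0573). With the library number as a block it was called at 0.18 (edgeR adjusted p = 0.0123). In LS180 cells H3F3B was called in 6 of 18 settings, with 4 h log2 fold changes from -0.46 to 0.29 over the settings. Counts of H3F3B per H3F3A count were 5.01 ± 0.498 at 0 h, 4.36 ± 0.477 at 2 h and 4.12 ± 0.275 at 4 h in HCT116 cells (SD, n = 3 each). LS180 cells had ratios of 1.70 ± 0.0449 at 0 h, 1.41 ± 0.0437 at 2 h and 1.22 ± 0.0470 at 4 h (SD, n = 3 each). The 4 h and 0 h libraries did not overlap in either line, with exact permutation p = 0.1 in each, the smallest possible. With the copies counted as H3F3A the 4 h and 0 h ratios also did not overlap in either line.

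macroH2A1 RNA also rose in both lines, though under ribosomal protein scaling it was not called (0.04 in HCT116 and 0.001 in LS180 cells). H2AFY was at 172, 173 and 177 CPM at 0 h, 200.3, 194 and 192 CPM at 2 h and 223, 239.9 and 244 CPM at 4 h in HCT116 cells. In LS180 cells it was at 228, 231 and 231 CPM at 0 h, 278, 279.6 and 270.4 CPM at 2 h and 295, 355 and 371 CPM at 4 h. LS180 4 h library 1 was the lowest of its group for this gene, but still above every 0 h library. The LS180 change was already called at 2 h, at 0.26 ± 0.06 (SE), edgeR adjusted p = 0.00377. In HCT116 cells the 2 h value was 0.17 ± 0.06 (SE), edgeR adjusted p = 0.0571, and with the library number as a block it was called, at 0.17 (edgeR adjusted p = 0.0462). The 4 h log2 fold change was 0.44 ± 0.07 (SE), edgeR adjusted p = 1.84e-05 in HCT116, and 0.56 ± 0.07 (SE), edgeR adjusted p = 5.30e-07 in LS180 cells. H2AFY was also the only member called between 2 and 4 h in HCT116 cells, at 0.27 ± 0.06 (SE), edgeR adjusted p = 0.00763. This call was lost without HCT116 2 h library 3 (edgeR adjusted p = 0.0503), 4 h library 2 (0.0561) or 4 h library 3 (0.0650).

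The H2A.Z genes H2AFZ and H2AFV rose in both lines by 4 h on the TMM scale, and under ribosomal protein scaling neither was called and H2AFZ was negative in both lines. H2AFZ was at 597, 685 and 657 CPM at 0 h, 677, 739.9 and 765 CPM at 2 h and 704, 854 and 892 CPM at 4 h in HCT116 cells. LS180 cells had 657, 635 and 678 CPM at 0 h, 796, 769 and 744 CPM at 2 h and 771, 908 and 937 CPM at 4 h. Every 4 h library exceeded every 0 h library of its line, by little for HCT116 4 h library 1. Its 4 h log2 fold change was 0.34 ± 0.09 (SE), edgeR adjusted p = 0.00283 in HCT116, and 0.41 ± 0.09 (SE), edgeR adjusted p = 4.34e-04 in LS180 cells. The HCT116 call was lost without 4 h library 3 (0.23, edgeR adjusted p = 0.0611), and the LS180 call at 2 h (0.23 ± 0.09 (SE), edgeR adjusted p = 0.0435) was lost when any LS180 0 h library or 2 h library 1 or 3 was left out (edgeR adjusted p from 0.0573 to 0.131).

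H2AFV was at 95.3, 113 and 114 CPM at 0 h, 117, 134 and 134 CPM at 2 h and 127, 148 and 154 CPM at 4 h in HCT116 cells. In LS180 cells it was at 147, 149 and 157 CPM at 0 h, 171, 166 and 169 CPM at 2 h and 189, 211 and 207 CPM at 4 h. The 4 h and 0 h libraries did not overlap in either line. Its 4 h log2 fold change was 0.41 ± 0.08 (SE), edgeR adjusted p = 2.79e-04 in HCT116, and 0.42 ± 0.08 (SE), edgeR adjusted p = 1.40e-04 in LS180 cells. Counts of H2AFZ per H2AFV count stayed within 5.53 to 5.78 at 4 h and 5.74 to 6.26 at 0 h in HCT116 cells, and within 4.08 to 4.53 at 4 h and 4.28 to 4.46 at 0 h in LS180 cells. The pair's ratio therefore overlapped between the times, unlike that of the H3.3 pair. The HCT116 call of H2AFV at 2 h (0.25 ± 0.08 (SE), edgeR adjusted p = 0.0234) was lost without HCT116 0 h library 1 (edgeR adjusted p = 0.123), 2 h library 2 (0.165) or 2 h library 3 (0.173). In LS180 cells the step between 2 and 4 h (0.26 ± 0.08 (SE), edgeR adjusted p = 0.0168) was lost without 2 h library 2 (edgeR adjusted p = 0.0653), 2 h library 3 (0.05003), 4 h library 2 (0.0923), 4 h library 3 (0.0778) or both of these (0.17, edgeR adjusted p = 0.497).

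H2AFJ, the least abundant member in HCT116 cells, was at 15.6, 14.9 and 17.1 CPM at 0 h, 16.7, 19.0 and 18.8 CPM at 2 h and 18.3, 21.3 and 20.8 CPM at 4 h there. In LS180 cells it was at 63.6, 65.4 and 61.0 CPM at 0 h, 68.3, 71.9 and 68.6 CPM at 2 h and 65.8, 74.8 and 82.5 CPM at 4 h. Its 4 h log2 fold change was 0.34 ± 0.08 (SE), edgeR adjusted p = 0.00194 in HCT116, and 0.23 ± 0.08 (SE), edgeR adjusted p = 0.0155 in LS180 cells. Among fits that left out 1 library, the LS180 call was lost without 0 h library 3 (edgeR adjusted p = 0.0624) or 4 h library 3 (0.106). Over 18 settings H2AFJ was called in 14 in LS180 cells, with log2 fold changes from -0.33 to 0.44. Under ribosomal protein scaling that call was lower, not higher. As a share of the members' counts H2AFJ overlapped between 4 h and 0 h in both lines.

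Neither linker histone was called lower on the TMM scale. H1F0 was at 308, 316 and 315 CPM at 0 h, 368, 375 and 361 CPM at 2 h and 369, 372 and 378 CPM at 4 h in HCT116 cells. LS180 cells had 231, 240.4 and 235 CPM at 0 h, 231, 258 and 261 CPM at 2 h and 219.7, 253 and 254 CPM at 4 h. The HCT116 increase was already there at 2 h, at 0.23 ± 0.06 (SE), edgeR adjusted p = 0.00532, and was similar at 4 h, at 0.25 ± 0.06 (SE), edgeR adjusted p = 0.00132. The 2 h call was lost without HCT116 2 h library 2 (edgeR adjusted p = 0.0520). In LS180 cells the 4 h value was 0.04 ± 0.06 (SE), edgeR adjusted p = 0.575, and without 4 h library 1 it was 0.24 (edgeR adjusted p = 7.96e-04). H1FX ranged from 36.7 to 46.4 CPM over the 9 HCT116 libraries and from 74.1 to 87.4 CPM over the 9 LS180 libraries. Its 4 h change was 0.06 ± 0.07 (SE), edgeR adjusted p = 0.536 in HCT116, and -0.14 ± 0.07 (SE), edgeR adjusted p = 0.127 in LS180 cells, with 95% intervals of -0.09 to 0.21 in HCT116 and -0.28 to 0.01 in LS180 cells.

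The deposited TPM of LS180 cells did not all follow the CPM. LS180 4 h libraries 2 and 3 had lower TPM than library 1 for all 9 genes, for example 421, 343 and 303 TPM for H2AFZ in libraries 1, 2 and 3, against 358, 297 and 335 TPM at 0 h. H2AFX was lower on this scale too, at 22.8, 14.6 and 12.8 TPM at 4 h, against 47.8, 43.6 and 42.3 TPM at 0 h.

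The clustered histone genes gave the contrast. All 89 HIST1 to HIST4 genes together held 11544 to 14059.9 of every 1000000 counts at 0 h, 616 to 1073 at 2 h and 277 to 470.4 at 4 h in HCT116 cells. In LS180 cells they held 15129 to 16023 at 0 h, 1458 to 2658 at 2 h and 683 to 1012 at 4 h. The 9 replacement genes held 2576 to 2782 at 0 h and 2733 to 3046 at 4 h in HCT116 cells, and 2427 to 2521 at 0 h and 2509 to 2637 at 4 h in LS180 cells, as shares of unscaled counts. At 0 h the replacement genes thus had 0.194 to 0.223 counts per clustered histone count in HCT116 cells, and at 4 h 5.81 to 10.99. In LS180 cells this ratio was 0.152 to 0.167 at 0 h and 2.61 to 3.80 at 4 h. Of 65 clustered genes tested at 4 h, 1 was called higher and 54 lower in HCT116 and 2 higher and 62 lower in LS180 cells, with a median log2 fold change of -5.26 in HCT116 and -4.33 in LS180 cells. H2AFX, at -0.76 in HCT116 and -1.15 in LS180 cells, lay between these medians and the other members in both lines. Clustered copies can share reads, so only their sums and counts are used here.

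**Figure D4:**
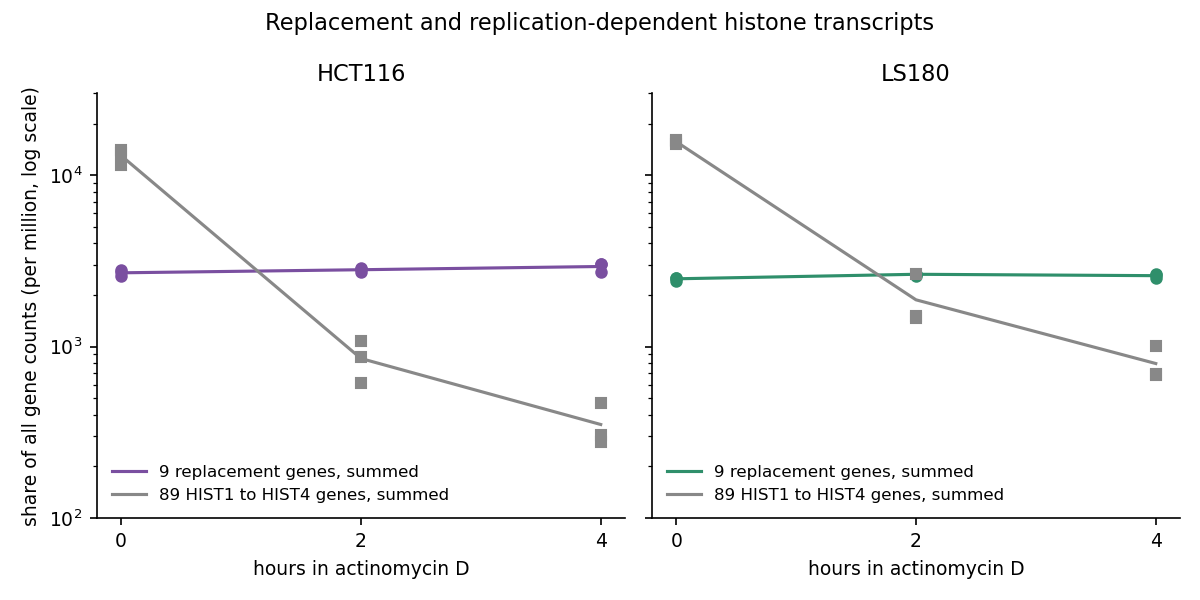
Counts per 1000000 counts (log scale) held in sum by the 9 replacement genes (coloured circles) and by the 89 HIST1 to HIST4 genes (grey squares) at 0, 2 and 4 h in actinomycin D, in HCT116 (left) and LS180 (right). Points are libraries and lines join means of 3. The clustered genes start above the replacement genes and end below them in both lines.

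The factors around these histones did not move as one in actinomycin D. Over all genes at 4 h over 0 h, 26.2% were called higher and 23.7% lower in HCT116, and 26.6% higher and 31.1% lower in LS180 cells. At 4 h over 0 h the replication-coupled histone factors counted 1 higher and 6 lower of 10 in HCT116 and 0 higher and 7 lower of 10 in LS180 cells (median -0.26 in HCT116 and -0.53 in LS180). NPAT, which drives transcription of the clustered histone genes, averaged 10.7 ± 1.58 CPM at 4 h and 29.6 ± 0.990 CPM at 0 h in HCT116 cells (SD, n = 3 each), a log2 fold change of -1.46 with edgeR adjusted p = 5.37e-10. In LS180 cells NPAT averaged 12.3 ± 1.79 CPM at 4 h and 35.3 ± 1.10 CPM at 0 h (SD, n = 3 each), a log2 fold change of -1.52 with edgeR adjusted p = 1.55e-10. The H2AX signalling genes counted 4 higher and 2 lower of 13 in HCT116 and 4 higher and 2 lower of 13 in LS180 cells (median 0.13 in HCT116 and 0.02 in LS180). Among them PPM1D, a phosphatase that dephosphorylates H2AX, averaged 27.2 ± 3.61 CPM at 4 h and 64.6 ± 4.27 CPM at 0 h in HCT116 cells (SD, n = 3 each), a log2 fold change of -1.25 with edgeR adjusted p = 4.10e-10. In LS180 cells PPM1D averaged 3.22 ± 0.336 CPM at 4 h and 29.2 ± 1.46 CPM at 0 h (SD, n = 3 each), a log2 fold change of -3.18 with edgeR adjusted p = 8.06e-15. The H2A.Z exchange genes counted 7 higher and 5 lower of 15 in HCT116 and 6 higher and 7 lower of 15 in LS180 cells (median 0.08 in HCT116 and 0.07 in LS180), and the H3.3 deposition factors 2 higher and 4 lower of 8 in HCT116 and 3 higher and 3 lower of 8 in LS180 cells (median -0.11 in HCT116 and -0.15 in LS180). Of the remaining replacement variants 3 of 9 passed the filter, and CENPA had a log2 fold change of -0.14 in HCT116 (edgeR adjusted p = 0.0964) and -0.65 in LS180 cells (edgeR adjusted p = 1.47e-07), a difference of 0.51 with edgeR adjusted p = 9.69e-04.

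Before actinomycin D all 9 genes were expressed in both lines, and the levels of 7 were called different between the lines. That share was close to the share over all genes given below. HCT116 cells had more H3F3B and H1F0 RNA than LS180 cells and less H2AFJ, H1FX, H3F3A, H2AFV and H2AFY RNA, while H2AFX and H2AFZ passed no test. With 2 of 9 called higher and 5 lower, the counts stand beside a background of 33.7% and 42.6% of all genes, and 76.3% of all genes were called in either direction. The members' median log2 fold change was -0.40, against -0.10 for all genes.

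**Figure D5:**
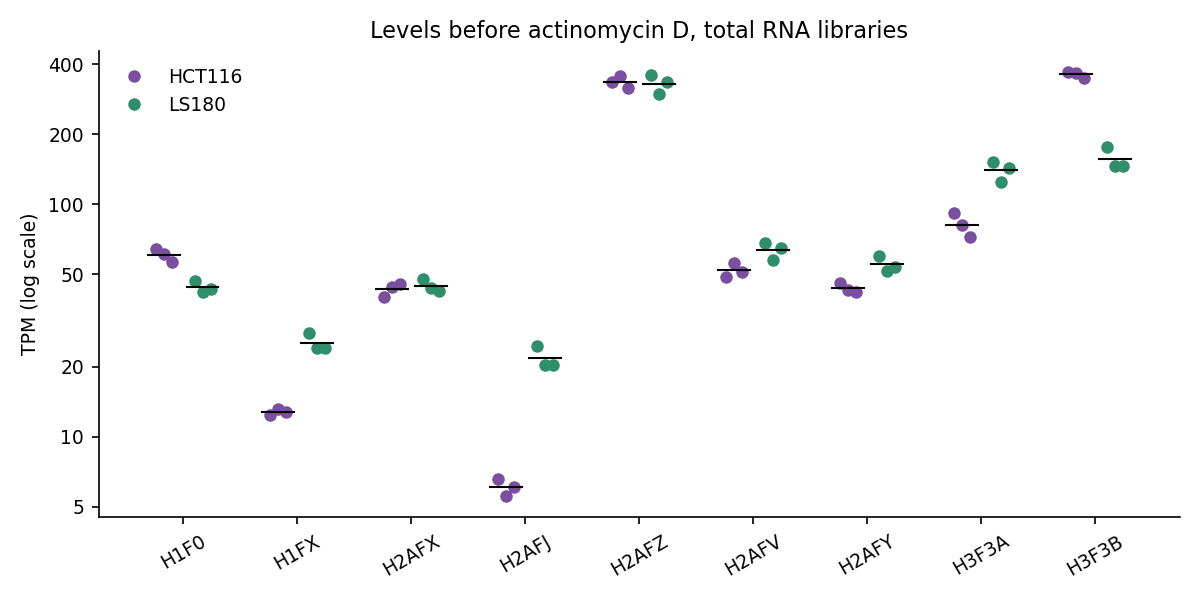
TPM (log scale) of the 9 genes at 0 h, with HCT116 in purple on the left and LS180 in green on the right of each gene. Points are libraries (3 per line) and bars are means. H3F3B lies higher and H2AFJ lower in HCT116, and H2AFZ and H2AFX overlap.

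H2AFJ had the widest gap. It was at 15.6, 14.9 and 17.1 CPM in HCT116 cells, against 63.6, 65.4 and 61.0 CPM in LS180 cells, 25.1% of the LS180 level, and its log2 fold change was -2.00 ± 0.08 (SE), edgeR adjusted p = 6.97e-14. H1FX was at 36.7, 41.9 and 44.1 CPM in HCT116 and 84.8, 85.4 and 80.7 CPM in LS180 cells, a log2 fold change of -1.03 ± 0.07 (SE), edgeR adjusted p = 3.32e-10. H1F0 went the other way, at 308, 316 and 315 CPM in HCT116 and 231, 240.4 and 235 CPM in LS180 cells, with 0.41 ± 0.06 (SE), edgeR adjusted p = 3.16e-06. The linker genes thus differed in opposite directions between the lines. H2AFY (-0.40 ± 0.07 SE, edgeR adjusted p = 1.66e-05) and H2AFV (-0.49 ± 0.08 SE, edgeR adjusted p = 1.85e-05) were lower in HCT116, and both lost their call under ribosomal protein scaling, at -0.12 (edgeR adjusted p = 0.0603) and -0.20 (edgeR adjusted p = 0.0934).

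The H3.3 genes differed between the lines in opposite directions. H3F3B was at 816, 923 and 910.1 CPM in HCT116 cells, against 523, 529 and 554 CPM in LS180 cells, a log2 fold change of 0.72 ± 0.07 (SE), edgeR adjusted p = 5.25e-08. H3F3A was at 183, 177 and 169 CPM in HCT116 cells, against 314, 302 and 329 CPM in LS180 cells, a log2 fold change of -0.83 ± 0.07 (SE), edgeR adjusted p = 1.56e-09, and -0.83 with the copies added. There were 5.01 ± 0.498 H3F3B counts per H3F3A count in HCT116 cells and 1.70 ± 0.0449 in LS180 cells (SD, n = 3 each). With the copies counted as H3F3A the ratios were 3.58 ± 0.405 in HCT116 and 1.22 ± 0.0388 in LS180 cells. Neither form overlapped between lines, with exact permutation p = 0.1, the smallest possible.

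H2AFX was at 123, 147 and 164 CPM in HCT116 and 151, 160.4 and 146 CPM in LS180 cells, which overlap, with a log2 fold change of -0.08 ± 0.09 (SE), edgeR adjusted p = 0.440 and a 95% interval of -0.24 to 0.09. H2AFZ was at 597, 685 and 657 CPM in HCT116 and 657, 635 and 678 CPM in LS180 cells, with -0.02 ± 0.09 (SE), edgeR adjusted p = 0.812 and a 95% interval of -0.19 to 0.14; under ribosomal protein scaling it was called higher in HCT116, at 0.26.

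Ordered per length at 0 h, HCT116 cells had H3F3B first at 362 ± 11.7 TPM and H2AFZ next at 337 ± 20.7 TPM (SD, n = 3 each), ranges that overlap. H3F3A (81.6 ± 9.59), H1F0 (60.8 ± 4.05), H2AFV (52.0 ± 3.69), H2AFY (43.5 ± 1.90) and H2AFX (43.1 ± 2.88 TPM) followed, and H2AFY and H2AFX overlapped. H1FX (12.8 ± 0.370 TPM) and H2AFJ (6.08 ± 0.495 TPM) were lowest. LS180 cells had H2AFZ first at 330.4 ± 30.9 TPM, then H3F3B (156 ± 17.5) and H3F3A (140.0 ± 13.5), which overlapped, then H2AFV (63.4 ± 5.42), H2AFY (55.2 ± 4.24), H2AFX (44.6 ± 2.86), H1F0 (44.1 ± 2.59), H1FX (25.4 ± 2.17) and H2AFJ (21.9 ± 2.44 TPM). Each neighbouring pair from H2AFV down in LS180 cells overlapped except H2AFY with H2AFX and H1F0 with H1FX. By 4 h H2AFX had the lowest mean of the 9 in LS180 cells at 16.7 ± 5.32 TPM, overlapping with H1FX and H2AFJ, while in HCT116 cells it stayed above H1FX and H2AFJ at 26.0 ± 2.32 TPM (SD, n = 3 each).

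H3F3B RNA was also estimated to be shorter in HCT116 than in LS180 cells. The abundance-weighted transcript length of H3F3B was 1174 to 1238 bases in HCT116 cells and 1473 to 1681 bases in LS180 cells at 0 h, and 1121 to 1170.4 bases in HCT116 and 1507 to 1715 bases in LS180 cells at 4 h. HCT116 and LS180 libraries did not overlap at any time. H2AFV showed a smaller shift, with 1031 to 1065 bases in HCT116 and 1128 to 1153 bases in LS180 cells at 0 h. H2AFX stayed between 1549 and 1585 bases in all 18 libraries. With effective length as an offset the H3F3B difference between the lines at 0 h was 1.17 (edgeR adjusted p = 1.83e-10), against 0.72 without it.

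For each member the gene whose pattern over the 18 actinomycin D libraries was closest was taken from 9898 genes that averaged at least 5 CPM, by the root mean square distance of log2 CPM centred on each gene's mean. H2AFY lay closest to SPCS1 (0.0384), H2AFZ to EBNA1BP2 (0.0431), H2AFV to HNRNPA1 (0.0450), H3F3A to HSDL2 (0.0454) and H3F3B to DIAPH3 (0.0504). H1F0 lay closest to GART (0.0643), H1FX to PREB (0.0776), H2AFJ to CASP6 (0.0785) and H2AFX to USP6NL (0.112), which was the largest of the 9 closest distances. Among the members themselves, H2AFV and H2AFY were closest to each other, at 0.0957. The libraries share lines and times, so these distances describe likeness only.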

How the data were processed

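Gene tables of 22 libraries were used, 4 from the siRNA experiment (hg38) and 18 from the actinomycin D experiment (hg19). The tools named in the submitters' processing notes are cutadapt, STAR 2.7 and RSEM 1.3.1. The deposited tables hold RSEM expected counts, in which reads matching several genes are divided among them, the authors' TPM, and abundance-weighted transcript lengths in bases. Per the labels' protocols, RNA was taken up with the RNeasy Plus Mini Kit and libraries were stranded, from mRNA in the siRNA experiment and from total RNA in the other. The annotation release used for counting is not given in the sources used here.

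The expected counts were rounded and tested with edgeR 4.0.16 in R 4.3.3 (TMM, filterByExpr, quasi-likelihood F test, Benjamini-Hochberg adjustment over all genes, threshold 0.05), as 1 fit of the 4 siRNA libraries and 1 fit of the 18 actinomycin D libraries in 6 groups. SE was the log2 fold change divided by the root of F, and 95% intervals are normal intervals from it. CPM are after TMM scaling, and shares and ratios within a library use the counts without scaling. DESeq2 1.42.0, RLE scaling, other filters, length offsets, a replicate block, left-out libraries and scaling to ribosomal protein genes were alternatives. The block was 1 term for the library number, shared by both lines. The numbers paired the HCT116 libraries, from the data and not from the labels: same-numbered libraries of different times deviated together from their group means, with r = 0.229 to 0.663 over the times, and blocked values stand beside the HCT116 results whose call they changed. Summing pseudogene copies was chosen after seeing the data. The fits were tested on simulated data. Depth was 23.7 to 26.7 M counts (M stands for 1000000) per siRNA library and 47.8 to 61.4 M per actinomycin D library. Intervals cover the spread between libraries only.

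The members and lists were chosen with earlier results of these data known. Named genes were all 9 members in every comparison, at most 3 genes of each list with the smallest adjusted p, the tested gene closest in pattern to each member, and STAU1. Coordinates and coding sequences come from GENCODE 29 on GRCh38, promoter windows from RefSeq. No duplicate libraries were found.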

Additional observations from a re-analysis of the deposited data

Results flagged for a closer look

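The change of H2AFX between 0 and 4 h of actinomycin D differed between the lines by a test of that difference. H2AFX fell by 0.76 on the log2 scale in HCT116 and by 1.15 in LS180 cells, and the HCT116 change minus the LS180 change was 0.39 ± 0.12 (SE, edgeR adjusted p = 0.0394). All 3 libraries of each line showed the fall. The difference was called in 8 of 25 settings. Among these were the effective length, replicate block, pseudogene and total library size fits and that without the 3 HCT116 libraries numbered 1 (0.37, adjusted p = 0.0067). It was not called in DESeq2 (0.31, adjusted p = 0.116), under RLE scaling (0.31, adjusted p = 0.154) or under ribosomal protein scaling. Nor was it called under either other filter, with only the groups compared, or when any of 10 libraries was left out. LS180 4 h library 1, which had 72.2 CPM of H2AFX against 65.9 and 68.0 CPM in libraries 2 and 3, was the library that stood apart in its group, and its part in the result was not tested beyond leaving it out (0.27, adjusted p = 0.171).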

How the results depend on the processing

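The members' calls after siSTAU1 (6 of 9) and between the lines at 0 h (7 of 9) stayed within 1.5 times under every alternative run, with 5 to 7 and 7 to 7 when a library was left out. For LS180 at 2 h over 0 h (4 called), RLE scaling, DESeq2 and a filter of at least 1 CPM each gave 7, no filter gave 8 and ribosomal protein scaling gave 1, with 3 to 7 when a library was left out. LS180 at 4 h over 2 h (4) gave 0 without the LS180 4 h libraries 2 and 3 and 2 to 5 when 1 library was left out, and LS180 at 4 h over 0 h (6) gave 5 to 8. HCT116 at 2 h over 0 h (4) gave 1 under ribosomal protein scaling and 2 to 5 when a library was left out. HCT116 at 4 h over 2 h (1) gave 2 in DESeq2, 0 under ribosomal protein scaling, 3 without the HCT116 libraries numbered 1 and 0 to 3 when a library was left out. HCT116 at 4 h over 0 h (7) gave 2 under ribosomal protein scaling and 6 to 8 when a library was left out. The line difference at 4 h (1) gave 0 under RLE scaling, in DESeq2, without a filter, with only the groups compared and without the LS180 4 h libraries 2 and 3, gave 2 with the 1 CPM filter and with total library size, and ranged from 0 to 2 when a library was left out; that at 2 h stayed at 0 to 0.

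Under ribosomal protein scaling these log2 values changed sign, called or not: H2AFZ (-0.00831), H2AFV (-0.07), H3F3B (-0.19), H1F0 (-0.15) and H2AFJ (-0.10) in LS180 at 2 h over 0 h; H2AFV (-0.0565), H2AFY (-0.0241), H3F3B (-0.27), H3F3A (-0.0626), H2AFZ (-0.14) and H2AFJ (-0.23) in LS180 at 4 h over 2 h; H2AFV (-0.13), H3F3B (-0.46), H2AFZ (-0.15), H1F0 (-0.52) and H2AFJ (-0.33) in LS180 at 4 h over 0 h; H2AFY (-0.06), H3F3B (-0.14), H2AFZ (-0.05) and H2AFJ (-0.03) in HCT116 at 2 h over 0 h; H2AFV (-0.01), H3F3B (-0.08), H2AFZ (-0.0043), H1FX (-0.10), H1F0 (-0.15) and H2AFJ (-0.02) in HCT116 at 4 h over 2 h; H2AFZ (-0.0588), H3F3B (-0.22), H1FX (-0.34), H1F0 (-0.14) and H2AFJ (-0.0516) in HCT116 at 4 h over 0 h; H2AFZ (0.26) and H2AFX (0.21) between the lines at 0 h; and H2AFV (0.14), H2AFY (0.04), H3F3A (0.05) and H2AFZ (0.09) in the line difference at 4 h. With total library size H1F0 (-0.17) and H3F3B (-0.11) changed sign in LS180 at 4 h over 0 h, H3F3B (-0.11) and H2AFJ (-0.07) in LS180 at 4 h over 2 h, H1F0 (-0.04) in HCT116 at 4 h over 2 h, H1FX (-0.06) in HCT116 at 4 h over 0 h, H2AFZ (0.05) between the lines at 0 h, and H2AFV (0.07) and H2AFZ (0.02) in the line difference at 4 h. The cause was not tested. Over all genes the calls ranged from 4073 to 7064 (siSTAU1, 6482), 1341 to 6584 (LS180 4 h over 2 h, 5306), 1695 to 3828 (HCT116 4 h over 2 h, 2730), 376 to 1370 (line difference at 2 h, 973), 990 to 4455 (line difference at 4 h, 2359), and 3355 to 5856 (HCT116 2 h over 0 h, 5346).

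Library numbers did not pair the siRNA libraries, which deviated with r = -0.0796. They did not consistently pair the LS180 libraries among themselves or with HCT116, where r ranged from -0.312 to 0.205. In the actinomycin D experiment 9 of 18 libraries correlated best with their own number. In HCT116 cells, where the numbers paired the libraries, the block added H2AFY at 2 h over 0 h and H3F3B at 4 h over 0 h and changed no other call of a member. With a replicate block 8 members and 7064 genes were called after siSTAU1, with H1FX (adjusted p = 0.0323) and H2AFV (adjusted p = 0.0431) added. At 2 and 3 libraries per group the number of libraries, more than depth, sets the smallest exact p (0.333 and 0.1).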
